A study of Mus musculus with 120 samples.

Results

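Axon guidance genes encode the cues and receptors that steer growing axons, and many of them are still transcribed in adult neurons. Their messenger RNA was examined in neurons of 22 mouse thalamic nuclei. Members were taken by gene symbol: semaphorins, plexins and neuropilins, ephrins and Eph receptors, Slits and Robos, netrins and the netrin receptors Dcc, Neo1 and Unc5a to Unc5d. The rule matched 50 of the 16538 genes in the table: 12 semaphorins, 9 plexins and neuropilins, 6 ephrins, 11 Eph receptors, 3 Slits, 2 Robos, 1 netrin and 6 netrin receptors. Genes of these families that the table does not hold, such as Ephb2, Ntn1 and the class 3 semaphorins other than Sema3e, could not be examined. Statements on a family therefore cover its genes in the table alone. The rule itself uses gene symbols and no measured value, though it was set with earlier results of these data known.

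The 120 libraries came from neurons that a tracer had labelled through their axons, picked by hand and amplified, with 14 to 200 cells (median 60.5) in each. They fall into 24 groups by nucleus, tracer and injected target. A viral tracer (AAV, rAAV2retro carrying GFP or tdTom) injected into striatum labelled PVT (3 libraries), IMD, PCN, CM, CL, PF and SPA (4 each). The lipid dye DiI labelled the nuclei that project to cortex: LP (9) and LGd (5) from V1, PO (7) and VB (4) from barrel cortex, VA (8), VM (6) and VL (6) from M1, AD (4), AV (8) and LD (5) from Rs, RE (8), AM (4) and IAD (3) from Cg, MD (6) from lc Orb and VPMpc (6) from insula. CM was also labelled by DiI from striatum (3 libraries) and AM by AAV from Cg (1 library). By these labels 119 libraries were wildtype and 1, of VA, was 33.7-Gad2. LP and LGd libraries (14) carried a second label from the eyes, and VA, VL and VM libraries (20) a viral one from SNr and DCN. The mice were 55 to 447 old, in a unit that the labels do not state: 64 to 136 for LP and LGd, 69 to 100 for PO and VB, 95 to 112 for VM, 87 to 163 for VL, 97 to 100 for AD, 97 to 444 for AV, 55 to 114 for RE, 69 to 72 for AM, 99 to 103 for PVT, 125 to 157 for PF, and 125 to 136 and 98 to 99 for CM with AAV and DiI. Libraries from mice above 400 were 7, all of AV, LD and VPMpc. AD, AV, LD, LGd, LP, MD, PO, VB and the DiI-labelled CM came from males, and PVT, IMD, CL, PF, SPA and AM from females. The other groups held both sexes, and 13 libraries pooled cells of several mice. The replicates of a group are separate samples, but 85 mice gave the 120 libraries, so p-values measure the spread between libraries that in part share a mouse.

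Guidance systems work as ligand and receptor pairs. Secreted and membrane-bound semaphorins signal through plexins, and the class 3 semaphorins mostly need a neuropilin as co-receptor; Sema3e, which binds Plxnd1 directly, is the known exception. Ephrins are tethered to the membrane and bind Eph receptor tyrosine kinases on the neighbouring cell: the A ephrins through EphA and the B ephrins through EphB receptors, with Epha4 binding both kinds. Slits repel axons through Robo receptors. Netrins attract through Dcc and repel through the Unc5 receptors, and neogenin (Neo1) also binds the repulsive guidance molecules. In the developing thalamus gradients of these systems sort axons towards their cortical areas, and in the adult several members are known at synapses.

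Total counts per library ran from 8159497 to 26444831. Levels are CPM, counts scaled by library size, after TMM scaling of library sizes, and a gene was called where edgeR's quasi-likelihood test gave an adjusted p under 0.05 (Benjamini-Hochberg, over all genes tested). Slc17a6, the vesicular glutamate transporter of thalamic relay cells, was at 517.8 CPM or more and the thalamic transcription factor Tcf7l2 at 813.3 CPM or more in every library. The summed level of the 9 measured oligodendrocyte markers (of 10 listed) was 0.992 to 4229 CPM, and 6 libraries were above 500 CPM: 1 each of LP and VM and 2 each of VA and VB. Astrocyte, endothelial and fibroblast marker lists are not analysed here, since none of their genes is in the table. In groups of cells like these, fewer cells using a gene and less RNA per cell cannot be told apart. Overlap of ranges between libraries was counted for members alone, and the share of all genes without overlap was not computed in any comparison. The kit does not mark strand, and exons of Epha1, Epha10, Epha6, Plxna4 and Unc5c overlap those of another measured gene, so their reads cannot be fully separated.

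Plxnc1, Sema6d and Sema5a varied widely over the nuclei. Plxnc1, the plexin that binds Sema7a, ranged from 3.70 to 913.0 CPM over the libraries with a median of 132.2. It was highest in VPMpc at 503.1 ± 150 CPM (SD, n = 6), then in PO at 353.5 ± 59.8 (n = 7), MD at 316.1 ± 295 (n = 6), LP at 299.9 ± 98.0 (n = 9) and RE at 276.8 ± 53.1 (n = 8). At the other end were VL at 35.8 ± 12.8 (n = 6), VB at 33.2 ± 20.5 (n = 4), AV at 28.9 ± 19.6 (n = 8) and AD at 13.9 ± 13.7 (n = 4). The MD mean rests on 1 library at 913.0 CPM, the others of MD lying at 263.6 or below. Neighbouring nuclei in this order overlapped in all 21 steps, so the order is one of ends rather than of single ranks.

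Sema6d, a membrane semaphorin that binds class A plexins, had other extremes. It was highest in VB at 553.3 ± 126 CPM (SD, n = 4), AV at 498.8 ± 95.01 (n = 8), VL at 447.0 ± 55.3 (n = 6), LD at 428.7 ± 181 (n = 5) and LGd at 423.8 ± 66.7 (n = 5). The lowest nuclei for Sema6d were PO at 61.3 ± 28.0 (n = 7) and MD at 43.9 ± 37.0 (n = 6), and again every pair of neighbours in the order overlapped. VB, VL and AV were among the 4 lowest nuclei for Plxnc1 and the 3 highest for Sema6d, and PO and MD were among the 3 highest for Plxnc1 and the lowest for Sema6d.

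Sema5a, a membrane semaphorin with thrombospondin repeats, was highest in AD at 1511 ± 607 CPM (SD, n = 4), followed by LGd, VB at 958.9 ± 341 (n = 4), VPMpc at 940.6 ± 370 (n = 6) and VL at 834.9 ± 168 (n = 6). It was lowest in IMD at 85.7 ± 24.5 (n = 4), IAD at 79.3 ± 18.3 (n = 3) and AM at 35.3 ± 10.1 (n = 4). The step from IAD, whose lowest library was at 66.9 CPM, to AM, whose highest DiI library was at 49.2, was the only one of the 21 in Sema5a's order without overlap.

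**Figure D1:**
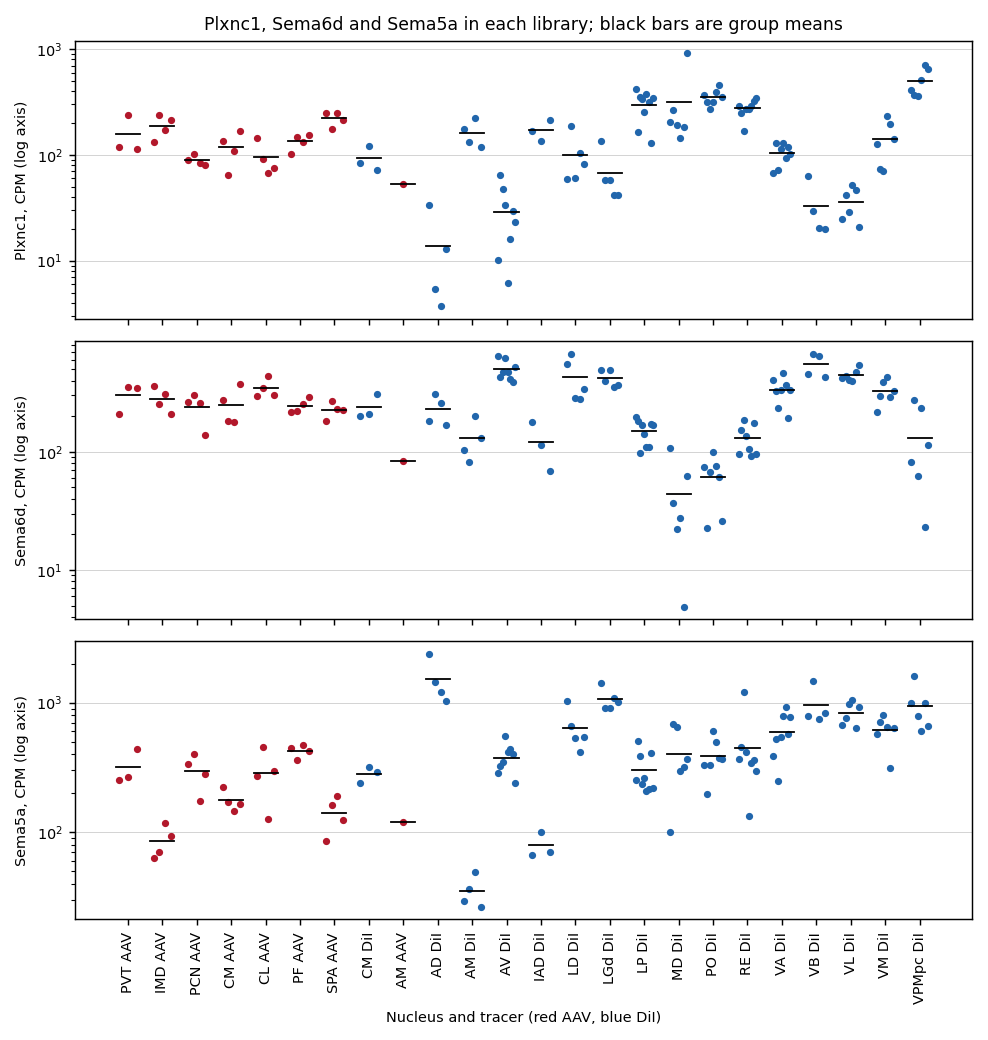
Levels of Plxnc1, Sema6d and Sema5a (CPM, log axes) in each library, by nucleus and tracer; points are libraries (red AAV, blue DiI) and black bars the group means. The ends of the orders stand out: VPMpc against AD for Plxnc1, VB against MD for Sema6d, AD against AM for Sema5a.

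The 250 bases before the RefSeq transcription start (build GRCm38.p6, the same assembly as mm10) are shown for the 3 genes above and for Robo2 and Sema3e, which differ in several of the pairs. They read 5′ to 3′ on the gene's own strand. Plxnc1 lies on the minus strand and the window is chr10:94944846-94945095. Sema6d has chr2:124089719-124089968 and Sema5a chr15:32244563-32244812, both on the plus strand. Robo2 has chr16:74411826-74412075 on the minus strand and Sema3e chr5:14025026-14025275 on the plus strand. Capitals mark matches to 4 short motifs that were searched on both strands: AGGTCA (bound by ROR receptors), CTTTGA (TCF/LEF, written TCAAAG where it lies on the other strand), TAATTA (homeodomain) and CACGTG (E-box).
Plxnc1: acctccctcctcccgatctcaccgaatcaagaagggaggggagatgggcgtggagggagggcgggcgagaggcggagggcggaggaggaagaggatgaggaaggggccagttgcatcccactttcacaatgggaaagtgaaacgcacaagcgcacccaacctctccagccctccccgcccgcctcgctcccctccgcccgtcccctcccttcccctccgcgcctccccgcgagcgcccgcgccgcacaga
Sema6d: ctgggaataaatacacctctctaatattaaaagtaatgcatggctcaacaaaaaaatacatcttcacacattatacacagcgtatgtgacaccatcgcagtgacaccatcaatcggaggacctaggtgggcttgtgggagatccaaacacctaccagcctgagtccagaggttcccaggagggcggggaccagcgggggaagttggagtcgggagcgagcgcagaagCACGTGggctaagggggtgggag
Sema5a: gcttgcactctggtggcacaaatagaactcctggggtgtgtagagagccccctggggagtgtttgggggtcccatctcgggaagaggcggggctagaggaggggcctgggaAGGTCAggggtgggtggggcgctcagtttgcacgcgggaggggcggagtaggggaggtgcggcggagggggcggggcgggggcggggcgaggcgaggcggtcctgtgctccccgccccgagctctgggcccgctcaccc
Robo2: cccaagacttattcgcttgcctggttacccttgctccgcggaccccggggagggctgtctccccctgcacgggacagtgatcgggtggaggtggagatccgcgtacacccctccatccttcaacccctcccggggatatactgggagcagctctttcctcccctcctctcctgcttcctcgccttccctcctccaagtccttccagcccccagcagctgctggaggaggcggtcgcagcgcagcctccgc
Sema3e: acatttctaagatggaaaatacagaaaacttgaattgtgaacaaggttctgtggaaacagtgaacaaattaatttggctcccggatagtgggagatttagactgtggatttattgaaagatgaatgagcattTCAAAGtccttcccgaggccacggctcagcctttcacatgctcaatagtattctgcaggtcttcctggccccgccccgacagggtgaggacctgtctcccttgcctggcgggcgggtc
The Sema5a window held 1 AGGTCA, the Sema6d window 1 CACGTG and the Sema3e window 1 CTTTGA, and those of Plxnc1 and Robo2 held none of the 4. The windows are unlike in base composition: G and C made up 72.0% for Sema5a, 68.8% for Plxnc1, 65.6% for Robo2, 52.4% for Sema6d and 48.0% for Sema3e. Of the 50 members 43 had a window. AGGTCA was in 5 of them (11.6%) against 13.8% of all 27025 promoter windows of the same length, CTTTGA in 2 (4.7%) against 14.0%, TAATTA in 1 (2.3%) against 4.9% and CACGTG in 2 (4.7%) against 6.05%. The median GC content was 66.0% over the members' windows and 52.0% over all of them. A match to such short letters is a description of the sequence and not a site of binding.

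To compare levels between genes, CPM was divided by exon length in kilobases (kb) and the median over the 22 nuclei was taken. Among the ligands Sema6a was the most abundant at 33.0 CPM per kb, before Sema6d at 23.6 and Sema5a at 21.03. The leading ephrin was Efna5 at 11.3, the leading Slit was Slit3 at 8.97, and Ntn4, the laminin-binding netrin, was at 1.87. Among the receptors Epha4 had the highest level of all members at 64.2 CPM per kb, then Neo1 at 25.3 and Plxnc1 at 16.5. Robo1 was at 12.7 and Robo2 at 4.11, and Dcc, the attractive netrin receptor, was at 1.80.

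The leading member of a family, per kb and among the genes in the table, was often the same gene in most nuclei. Robo1 led the Robos in 22 of 22 nuclei and Epha4 the Eph receptors in 19, with Epha7 in 2 and Epha5 in AD. Slit3 led the Slits in 16 nuclei, Slit1 in 5 and Slit2 in AD. The semaphorins and plexins were less uniform: Sema6a led in 10 nuclei and Sema6d in 8, and Plxnc1 led the plexins and neuropilins in 12 and Plxna4 in 6. Neo1 led the netrin receptors in 15 and Unc5c in 6.

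On the CPM scale 20 members had a mean of 10 CPM or more in all 22 nuclei, among them Epha4, Epha5, Epha6, Epha7, Robo1, Neo1, Slit3 and Unc5c. Efna2, Efnb1, Efnb3, Ephb1 and Sema6c reached that level in at most 4 nuclei. For Ephb1, a receptor for B ephrins, LD stood at 44.9 ± 25.1 CPM (n = 5) and the next nucleus, VB, at 4.00 ± 7.05 (n = 4). Nrp2, a co-receptor for class 3 semaphorins, was at 248.5 ± 88.8 CPM in AV (n = 8) and at 84.8 ± 68.4 in AD (n = 4), and no library of PCN had a read of it. Slit2 was the only member whose highest nucleus, AD, lay above every library of the other nuclei. The share of all genes with such a nucleus was not computed. The flattest member by the ratio of the highest to the lowest nucleus was Neo1, at 3.58-fold. AD was the lowest nucleus for 15 of the 50 members (30%), whatever their level, and for 9.78% of the 8954 genes whose mean reached 10 CPM. Only 40 of the members reached that mean, so these shares are of unlike sets. AD libraries had 11944 to 13164 genes with reads, AV libraries 11199 to 14332, and MD, lowest for 7 members and highest for 7, had 10189 to 13095.

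**Figure D2:**
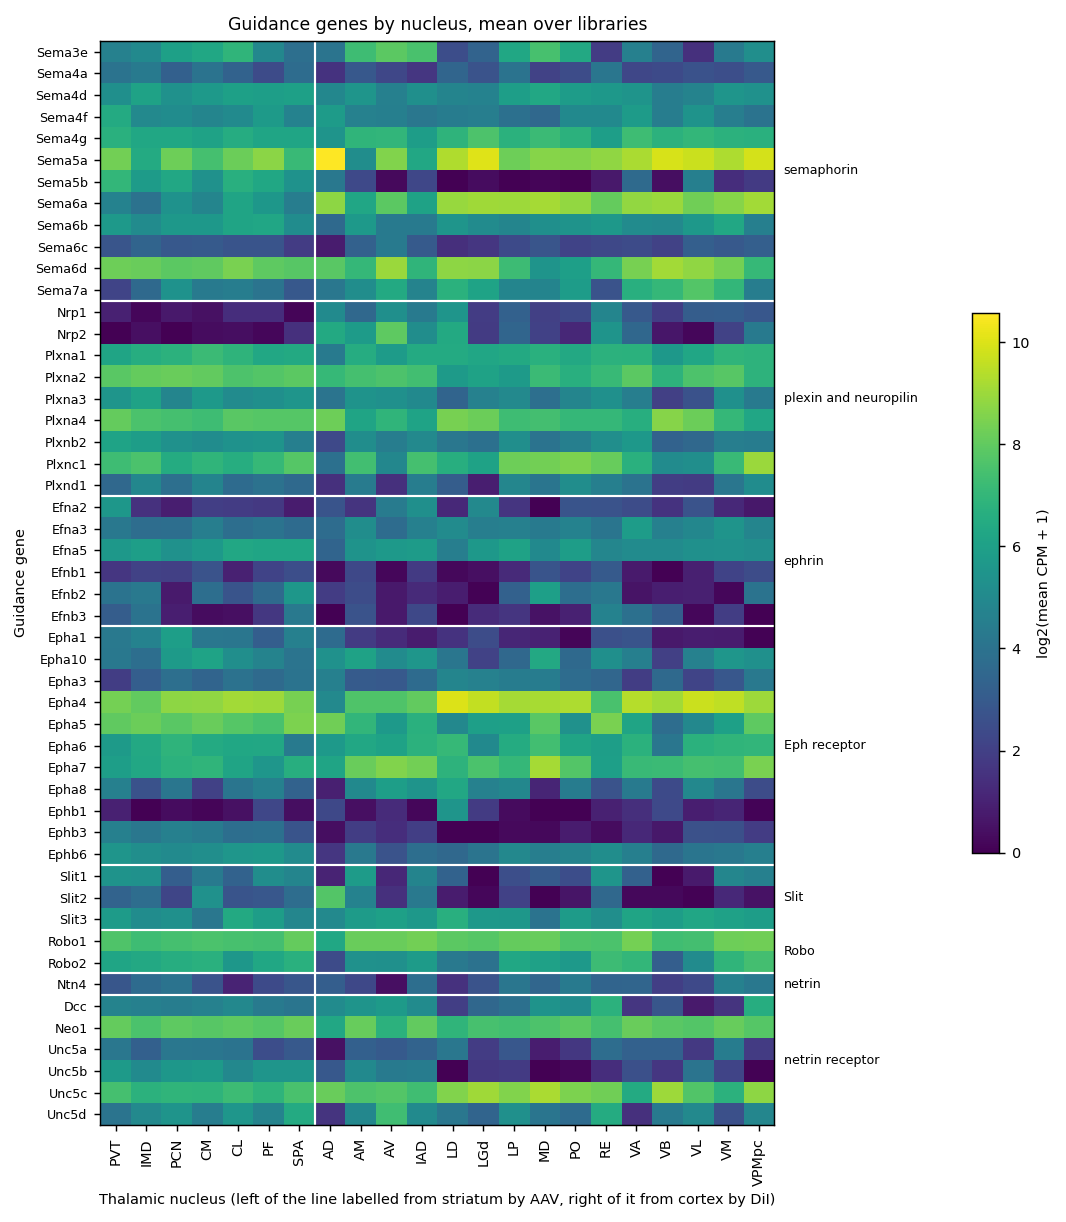
Mean level of each of the 50 guidance genes (rows, grouped by family) in each of the 22 nuclei (columns), as log2(mean CPM + 1); the vertical white line separates nuclei labelled from striatum by AAV from those labelled from cortex by DiI. Sema6a, Nrp1 and Nrp2 are darker on the left of the line and Sema5b is brighter there; Slit2 is bright in AD.

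All 50 members passed the filter on low counts. Against the hypothesis of equal means over the 22 nuclei 46 of 50 members were called, where 55.1% of all 16527 genes tested were. Among genes whose mean reached 10 CPM the members called were 38 of 40, against 54.5%. Every Eph receptor (11), plexin or neuropilin (9), netrin receptor (6), Slit (3) and Robo (2) in the table passed. The 4 that did not were Efna5 (adjusted p = 0.141), Sema4f (0.258), Sema4a (0.432) and Sema6c (0.435). The largest F values belonged to the ligand Sema6a (31.8, adjusted p = 5.65e-35), the receptors Epha5 (25.9, 3.47e-31) and Unc5c (23.8, 1.12e-29), Sema5a (22.5, 1.15e-28), Epha4 (21.2, 1.25e-27) and Plxnc1 (20.2, 8.46e-27). Epha7, Sema6d, Nrp2, Sema5b, Plxna2 and Plxna4 followed with F from 15.3 to 11.02.

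The receptors in that group peaked in different places. Epha5 was highest in SPA at 353.8 ± 58.1 CPM (n = 4), RE at 341.8 ± 56.4 (n = 8) and AD at 310.5 ± 44.3 (n = 4), and lowest in VB at 12.5 ± 10.6 (n = 4). Epha4 was highest in LD at 1022 ± 382 CPM (n = 5) and VL at 851.6 ± 119 (n = 6), and lowest in AD at 30.4 ± 23.9 (n = 4), with RE next at 184.8 ± 20.8 (n = 8). Unc5c, a repulsive netrin receptor, was highest in MD at 603.4 ± 305 CPM (n = 6) and LGd at 527.6 ± 65.5 (n = 5) and lowest in VA at 87.0 ± 34.7 (n = 8). Epha7 was highest in MD at 555.2 ± 168 CPM (n = 6) and AV at 380.8 ± 147 (n = 8), and lowest in PVT at 60.0 ± 29.5 (n = 3) and PF at 45.8 ± 20.4 (n = 4).

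LP and LGd, in standard nomenclature the lateral posterior and dorsal lateral geniculate nuclei, project to the same area, V1, as higher-order and first-order visual thalamus. Here 10 of 50 members were called, 7 higher and 3 lower in LP, where 3.62% of all genes were called (2.23% higher, 1.39% lower). LP had more Plxnc1, Robo2 and Plxnd1, and LGd more Sema5a, Sema6d and Plxna4. Among genes of at least 10 CPM the count was 10 of 40 against 4.85%. The median log2 fold change, LP over LGd, was 0.31 over the members and 0.097 over all genes.

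Among the ligands Sema6d was at 98.3 to 198.6 CPM in LP with a median of 167.2, and at 496.4, 400.6, 493.4, 357.0 and 371.7 CPM in LGd. No LP library reached the LGd range for Sema6d, and LP was lower by a log2 fold change of -1.50 ± 0.30 (SE; edgeR quasi-likelihood, adjusted p = 3.22e-04). Sema5a was lower in LP by -1.83 ± 0.28 (adjusted p = 5.59e-07), with 300.1 ± 108 CPM (SD, n = 9) against 1069.7 ± 212 (n = 5) and no overlap. Sema3e, the secreted ligand of Plxnd1, ranged from 36.7 to 132.2 CPM in LP (median 85.8) and was 7.33, 3.82, 19.2, 8.31 and 7.73 CPM in LGd. The ranges of Sema3e did not overlap, and the log2 fold change was 3.07 ± 0.94 (adjusted p = 0.0407). The call of Sema3e was lost without LGd library 1, 2, 4 or 5 (adjusted p = 0.101 to 0.125) and without the 6 libraries above 500 CPM of oligodendrocyte markers (0.0501).

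Ligands at low level also differed between LP and LGd. Slit1 was at 0 to 16.0 CPM in LP (median 4.34) and had no read in any LGd library, at least 110.2-fold higher in LP when the LGd group is set to 3 counts (adjusted p = 1.07e-03). Efnb2 was at 0 to 18.6 CPM in LP (median 9.39), and 2 of the 5 LGd libraries held its few reads, for a ratio of 276.4 with a counting interval from 76.3 to 2286 (adjusted p = 3.28e-03). Both genes had LP libraries at 0, so the groups overlap. With edgeR's quasi-likelihood test set to legacy = FALSE neither was called (adjusted p = 0.204 for Slit1 and 0.0749 for Efnb2).

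Receptors made up the rest. Plxnc1 was at 128.4 to 421.7 CPM in LP (median 341.6) and at 136.1, 58.2, 57.9, 41.9 and 41.5 in LGd. Only LGd library 1 reached into the LP range of Plxnc1, and the log2 fold change was 2.16 ± 0.38 (adjusted p = 2.11e-05). Robo2 was at 37.7 to 145.2 CPM in LP (median 82.1) and 9.54, 13.9, 12.9, 28.4 and 9.93 in LGd, with no overlap (2.38 ± 0.49, adjusted p = 5.39e-04). Plxnd1, the Sema3e receptor, was at 2.99 to 70.1 CPM in LP (median 26.3) and 0, 1.53, 0.487, 1.04 and 1.10 in LGd (5.04 ± 1.29, adjusted p = 8.29e-03). Its ranges did not overlap either, so both Sema3e and its receptor were higher in LP.

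Plxna4, a plexin for Sema6a and for class 3 semaphorins, went the other way. It was at 110.7 to 237.3 CPM in LP (median 155.2) and 250.6, 248.6, 259.4, 360.9 and 337.2 in LGd, with no overlap and a log2 fold change of -0.93 ± 0.26 (adjusted p = 0.0201). Epha6, an ephrin-A receptor, had 89.8 ± 39.0 CPM in LP (n = 9) and 30.9 ± 20.3 in LGd (n = 5; 1.54 ± 0.40, adjusted p = 0.0103). The calls of Plxna4 and Epha6 were each lost without 2 of the LGd libraries: Plxna4 without library 4 (adjusted p = 0.0852) or 5 (0.0671), and Epha6 without library 3 (0.0518) or 4 (0.0551). Epha6 was also not called by limma voom with the mouse as a random effect (0.0687). The nuclei share 1 amplification date, with 7 LP and 5 LGd libraries, on which alone 13 members were called.

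PO and VB, the posterior nucleus and the ventrobasal complex, form the same kind of pair for barrel cortex. Of 50 members 10 were called, 6 higher and 4 lower in PO, where 2.65% of all genes were (1.6% higher, 1.05% lower). PO had more Plxnc1, Plxna3 and Robo2, and VB more Sema6d, Plxna4 and Sema5a. For genes of at least 10 CPM the count was 9 of 40 against 3.86%. Members had a median log2 fold change, PO over VB, of 0.46 and all genes one of 0.072. The summed oligodendrocyte markers were at 75.6 to 2109 CPM in VB (median 504.6) and 3.81 to 257.3 in PO (median 38.5), and none of the 9 was called.

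Among the ligands Sema6d was at 22.5 to 100.3 CPM in PO (median 67.4) and at 456.4, 678.7, 644.9 and 433.1 in VB, with no overlap and a log2 fold change of -3.17 ± 0.35 (edgeR, adjusted p = 4.45e-11). Sema5a was at 195.6 to 604.9 CPM in PO (median 367.3) and 792.1, 1469, 748.1 and 826.7 in VB (-1.32 ± 0.31, adjusted p = 4.47e-03). The Sema5a ranges did not overlap, but without VB library 2 the value was -1.04 and not called (adjusted p = 0.0946). Slit1 was at 0 to 18.6 CPM in PO (median 1.53) and without a read in all 4 VB libraries, at least 85.8-fold higher in PO against 3 counts over the VB group (adjusted p = 5.60e-03).

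Among the receptors Plxnc1 was at 272.4 to 455.5 CPM in PO (median 350.1) and at 63.2, 29.3, 20.4 and 19.9 in VB. This gap, with no overlap, gave a log2 fold change of 3.41 ± 0.46 (adjusted p = 5.27e-08). Plxna4 was at 73.2 to 184.1 CPM in PO (median 135.6) and 374.1, 363.1, 462.7 and 415.8 in VB (-1.63 ± 0.29, adjusted p = 4.40e-05). Robo2 was at 24.04 to 75.0 CPM in PO (median 53.1) and 11.5, 10.1, 1.94 and 8.27 in VB (2.67 ± 0.56, adjusted p = 9.17e-04). For Plxna4 and Robo2, too, no PO library lay in the VB range.

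The remaining receptors of this pair were less firm. Plxna3, which pairs with neuropilins to receive class 3 semaphorins, was at 10.0 to 38.3 CPM in PO (median 29.4) and 6.09, 0.605, 0.204 and 5.13 in VB (3.14 ± 0.90, adjusted p = 0.0321). The Plxna3 ranges did not overlap, yet its call was lost without VB library 2 (adjusted p = 0.146), 3 (0.145) or 4 (0.0537). Epha6 had 71.2 ± 32.3 CPM in PO (n = 7) and 16.7 ± 13.9 in VB (n = 4; adjusted p = 1.70e-03), and Epha5 40.0 ± 20.8 against 12.5 ± 10.6 (adjusted p = 3.07e-03; 0.0619 without VB library 4). Ephb1 had no read in the 7 PO libraries and 0, 1.38, 0.102 and 14.5 CPM in VB, at least 164.6-fold lower in PO (adjusted p = 0.0169); without VB library 4 it was not called (0.168).

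Without the 6 libraries above 500 CPM of oligodendrocyte markers, VB libraries 3 (783.3 CPM) and 4 (2109 CPM) among them, 2 VB libraries were left and 5 of the 10 members were called. Robo2 had a log2 fold change of 2.23 there (2.67 with all libraries; adjusted p = 0.123), Plxna3 2.99 (3.14; 0.283) and Epha6 1.58 (2.09; 0.237), the same direction without passing the test. Slit1 (0.114) and Ephb1 (0.176), each without a read in 1 nucleus, were not called either. On the 1 amplification date that the nuclei share, with 3 PO and 4 VB libraries, Plxnc1, Sema6d and Plxna4 were called. Robo2 (2.44, adjusted p = 0.206), Sema5a (-1.24, 0.0683), Epha6 (2.24, 0.157), Epha5 (1.49, 0.645) and Plxna3 (3.51, 0.207) had the same direction there without passing the test. With the date as a term in the fit Sema5a (0.0901), Slit1 (0.235) and Ephb1 (0.296) were not called. Other settings ended calls of the low genes again. Slit1 (0.289), Ephb1 (0.111) and Plxna3 (0.0555) were not called with legacy = FALSE, nor Slit1 (0.091), Plxna3 (0.0631) and Epha5 (0.224) with PO and VB fitted alone. Without libraries of fewer than 30 cells Plxna3 (0.053), Epha5 (0.0633) and Ephb1 (0.177) were not called, and by limma voom with the mouse as a random effect these 3 and Epha6 were not (0.062 to 0.175).

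VM and VL, the ventral medial and ventral lateral nuclei, both project to M1. Between them 7 of 50 members were called, 5 higher and 2 lower in VM, where 1.69% of all genes were (1.22% higher, 0.478% lower). VM had more Slit1, Sema3e, Plxna3, Plxnc1 and Robo2, and VL more Plxna4 and Unc5c. For genes of at least 10 CPM the count was 7 of 40 against 2.55%. The median log2 fold change, VM over VL, was 0.27 over members and 0.00060 over all genes.

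Of the ligands, Slit1 was at 5.92 to 75.2 CPM in VM (median 14.8) and 0 to 2.39 in VL (median 0.172). The groups did not overlap in Slit1, with a log2 fold change of 5.28 ± 1.30 (edgeR, adjusted p = 0.0111). Sema3e was at 4.36 to 34.5 CPM in VM (median 18.4) and 0.0501 to 8.47 in VL (median 0.0637; 3.48 ± 0.93, adjusted p = 0.0224). The Sema3e ranges overlapped at the low end of VM.

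Among the receptors, Plxnc1 was at 69.9 to 234.9 CPM in VM (median 133.3) and 20.7 to 52.2 in VL (median 35.2). The Plxnc1 ranges did not overlap and the log2 fold change was 1.97 ± 0.37 (adjusted p = 1.49e-04). Plxna3 was at 14.7 to 82.2 CPM in VM (median 29.7) and 1.504 to 11.02 in VL (median 4.65; 2.87 ± 0.76, adjusted p = 0.0206), again without overlap. Robo2 had 120.9 ± 30.5 CPM in VM and 32.9 ± 21.5 in VL (n = 6 each; 1.88 ± 0.47, adjusted p = 0.0124), and the 2 ranges met at 70.0 to 73.4 CPM.

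Plxna4 was at 57.5 to 283.0 CPM in VM (median 110.8) and 233.2 to 398.8 in VL (median 271.1), overlapping, with a log2 fold change of -1.12 ± 0.28 (adjusted p = 0.0111). Unc5c was at 81.0 to 133.1 CPM in VM (median 106.1) and 151.2 to 298.9 in VL (median 198.8), apart in every library (-0.94 ± 0.23, adjusted p = 0.0108). On the shared amplification date, with 4 libraries of each nucleus, Unc5c (-0.90, adjusted p = 0.0597) and Plxna3 (2.65, 0.0703) were not called, and with the date as a term in the fit Plxna3 was not (0.0684). Plxna3 was also not called without libraries of fewer than 30 cells (2.47, 0.145), nor Sema3e (3.53, 0.104) and Plxna4 (-1.10, 0.054) with VM and VL fitted alone.

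Across the visual, somatosensory and motor pairs, Plxnc1, Robo2 and Slit1 were higher in LP, in PO and in VM alike, and Plxna4 was lower in each. That is 3 of 50 members in the one direction, where 0.46% of all genes were higher in all 3 pairs, and 1 of 50 in the other, where 0.127% were lower in all 3. Sema3e, Plxna3 and Epha6 were higher in exactly 2 pairs, and Sema5a and Sema6d lower in 2. With legacy = FALSE Slit1 passed the test between VM and VL but not in the other 2 pairs. The 3 pairs share no libraries. Among the 3 measured GABAergic markers (of 6 listed) Pvalb was lower in LP, PO and VM. The summed level of the 3 was 37.1 to 125.8 CPM in VL against 0.198 to 10.0 in VM, 31.1 to 74.8 in VB against 0 to 19.1 in PO, and 11.3 to 32.3 in LGd against 0 to 32.2 in LP. Parvalbumin is also made by thalamic relay cells, and its part in the differences above was not tested. Of the 8 thalamic projection neuron markers 2 were called in each pair, with Calb2 higher in LP, PO and VM, Tcf7l2 higher in PO and VM, and Rora lower in LP; their part was not tested either.

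**Figure D3:**
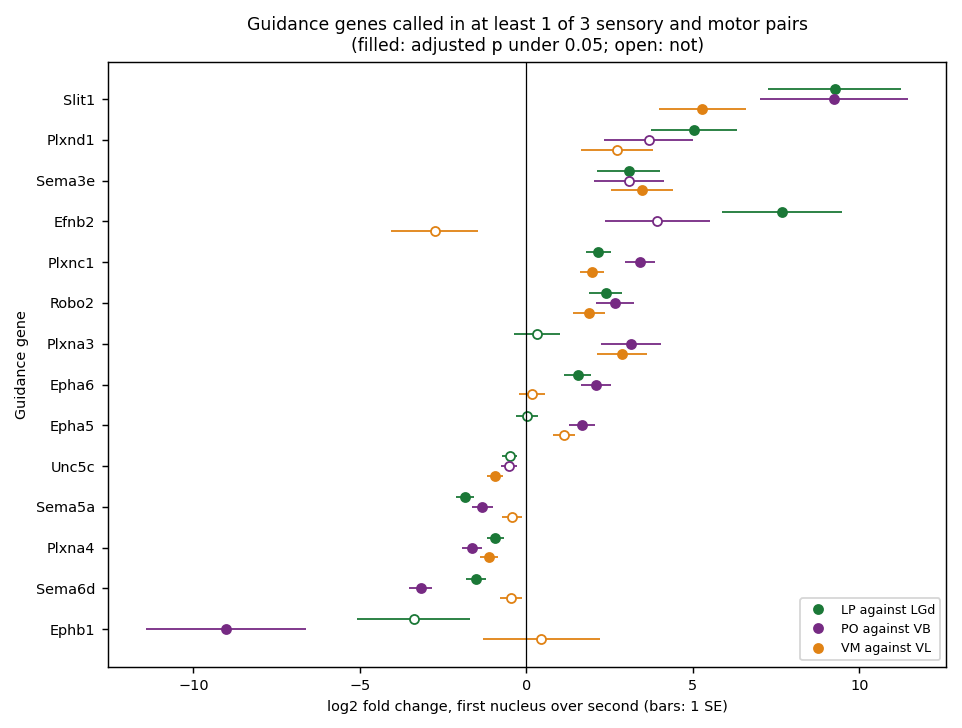
log2 fold changes with 1 SE of the guidance genes called in at least 1 of the pairs LP against LGd (green), PO against VB (purple) and VM against VL (orange); positive values are higher in the nucleus named first, filled points have an adjusted p under 0.05. Plxnc1, Robo2 and Slit1 lie to the right and Plxna4 to the left in each pair; the values of Slit1 for LGd and VB and of Ephb1 for PO rest on groups without reads and on the model's prior count.

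Whether the visual and somatosensory differences differ from one another was tested directly. No member was called by edgeR, where 0.2% of all genes were; 10 members had an unadjusted p under 0.05, and DESeq2 called 3. Sema6d came closest with a difference of 1.68 ± 0.47 on the log2 scale (adjusted p = 0.112), its fold change being -1.50 for LP over LGd and -3.17 for PO over VB. Epha5 followed (-1.66 ± 0.49, adjusted p = 0.131), with 0.018 in the visual and 1.68 in the somatosensory pair.

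AD and AV, the anterodorsal and anteroventral nuclei, both project to Rs and differed in the most members of the pairs tested. Here 17 of 50 members were called, 6 higher and 11 lower in AD, where 5.69% of all genes were (2.79% higher, 2.9% lower). AD had more Slit2, Epha5, Sema5a and Plxna4, and AV more Epha4, Epha7, Epha8, Robo1, Robo2 and Unc5d. For genes of at least 10 CPM the count was 16 of 40 against 7.83%. Members had a median log2 fold change, AD over AV, of -0.85 and all genes one of -0.082.

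Of the ligands, Slit2 was at 133.0, 218.2, 210.8 and 293.1 CPM in AD and 0 to 11.2 in AV (median 0.0461). The ranges of Slit2 were far apart, with a log2 fold change of 6.89 ± 1.46 (edgeR, adjusted p = 4.56e-04). Sema5a was at 2386, 1433, 1201 and 1023 CPM in AD and 238.6 to 548.8 in AV (median 376.3; 2.01 ± 0.30, adjusted p = 2.07e-07), again apart. Sema5b was at 6.85, 0.171, 33.4 and 30.9 CPM in AD and 0 to 1.18 in AV (median 0.0461; 6.33 ± 1.42, adjusted p = 1.24e-03), with 1 AD library inside the AV range. Ntn4 had 7.90 ± 5.89 CPM in AD (n = 4) and 0.335 ± 0.8496 in AV (n = 8; adjusted p = 1.27e-03).

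Other ligands were lower in AD. Sema3e was at 34.9, 14.99, 9.37 and 3.40 CPM in AD and 80.2 to 338.1 in AV (median 257.8; -3.95 ± 1.10, adjusted p = 0.0132), with no overlap. Sema6d was at 181.3, 306.6, 260.4 and 169.3 CPM in AD and 391.9 to 649.9 in AV (median 473.2; -1.12 ± 0.36, adjusted p = 0.0425), also apart. Sema4g, with 43.7 ± 19.4 CPM against 121.8 ± 79.3 (adjusted p = 8.16e-03), and the ephrin Efna5, with 9.70 ± 6.84 against 50.7 ± 31.6 (adjusted p = 0.0459), had overlapping ranges. With the replicate number as a block, 2 of whose 4 shared numbers are a shared mouse, Efna5 was not called (-2.28, adjusted p = 0.0769).

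The Eph receptors divided between the nuclei. Epha5 was at 356.2, 281.6, 339.5 and 264.5 CPM in AD and 31.8 to 69.6 in AV (median 51.2; 2.61 ± 0.34, adjusted p = 1.39e-09). Epha4 was at 1.14, 42.8, 22.0 and 55.6 CPM in AD and 156.6 to 268.7 in AV (median 192.2; -2.73 ± 0.31, adjusted p = 9.11e-12). Epha8 was at 0.254, 2.14, 0.866 and 0.414 CPM in AD and 22.2 to 106.5 in AV (median 53.3; -6.01 ± 1.06, adjusted p = 1.32e-05). Epha7 had 70.0 ± 30.7 CPM against 380.8 ± 147 (-2.44 ± 0.39, adjusted p = 1.41e-06). In none of these 4 receptors did an AD library lie within the AV range, and Epha5 alone of them was higher in AD.

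Robo1, the receptor for Slits, was at 78.2, 151.7, 37.4 and 40.1 CPM in AD and 215.9 to 373.2 in AV (median 268.5; -1.87 ± 0.28, adjusted p = 1.64e-07). Robo2 had 4.26 ± 5.06 CPM in AD against 38.3 ± 27.7 in AV (-3.16 ± 0.58, adjusted p = 2.87e-05), so Slit2 was higher and both Robos lower in AD. Unc5d, a repulsive netrin receptor that also binds FLRT proteins, was at 1.40, 6.60, 0 and 0 CPM in AD and 70.4 to 263.7 in AV (median 133.6; -6.29 ± 1.11, adjusted p = 1.34e-05), without overlap. Plxna4 was at 283.7, 340.3, 319.5 and 254.2 CPM in AD and 76.8 to 168.9 in AV (median 120.8; 1.31 ± 0.28, adjusted p = 5.41e-04), while Plxna1 had 19.3 ± 14.6 against 54.7 ± 22.2 (-1.50 ± 0.46, adjusted p = 0.0315).

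On the 1 amplification date that AD and AV share (4 and 5 libraries) 11 members were called; Plxna1 (adjusted p = 0.404), Ntn4 (0.0527), Sema5b (0.106), Robo2 (0.189), Efna5 (0.198) and Sema4g (0.211) were not, all 6 with the same direction, and with the date as a term Plxna1 was not (0.0536). Some calls also ended when 1 AD library was left out. This applied to Sema6d without library 1 (0.155), 3 (0.079) or 4 (0.158), Sema3e without 3 (0.0626) or 4 (0.07), Efna5 without any one of the 4 (0.055 to 0.197), Plxna1 without 1 (0.209) or 3 (0.132) and Sema4g without 3 (0.0747). With AD and AV fitted alone Robo2 (-3.16, 0.102), Ntn4 (4.49, 0.181), Plxna1 (0.252), Efna5 (0.124) and Sema4g (0.0963) were not called, and by limma voom with the mouse as a random effect the last 3 were not (0.108 to 0.229). Plxna1 was also not called with legacy = FALSE (0.122), nor Efna5 without the 6 libraries above 500 CPM of oligodendrocyte markers (0.0524). Of the thalamic projection neuron markers Lef1 and Rora were lower in AD; their part was not tested.

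**Figure D4:**
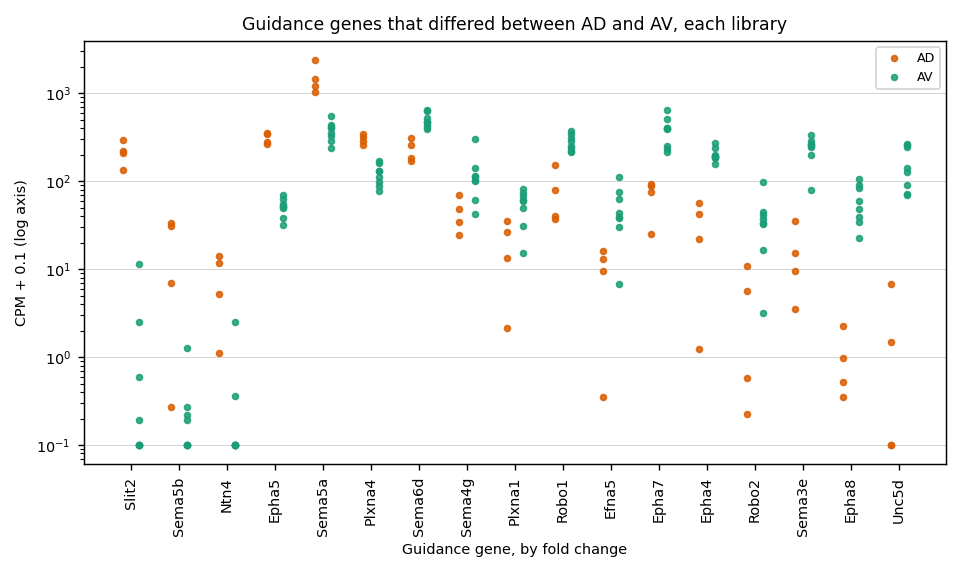
Level of each guidance gene called between AD (orange) and AV (green), as CPM + 0.1 on a log axis; each point is 1 library (4 of AD, 8 of AV) and genes run from the largest increase to the largest decrease in AD. Slit2 and Epha5 in AD lie above every AV library, and Unc5d, Epha8 and Epha4 below every one.

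RE and AM, the nucleus reuniens and the anteromedial nucleus, both project to Cg. Of 50 members 9 were called, 4 higher and 5 lower in RE, where 1.84% of all genes were (0.611% higher, 1.23% lower). RE had more Sema5a, Sema6a, Epha5 and Robo2, and AM more Sema3e, Sema7a, Epha7, Epha8 and Unc5b. For genes of at least 10 CPM the count was 9 of 40 against 2.76%. The median log2 fold change, RE over AM, was 0.086 over members and 0.050 over all genes. RE libraries had summed GABAergic markers at 52.0 to 167.5 CPM and AM at 0.199 to 5.64, with none of the 3 called. Of the 8 thalamic projection neuron markers Lef1, Slc17a6, Rora and Cacna1g were lower in RE (median log2 fold change of the 8 -0.966, summed level 4016 to 5221 CPM against 6010 to 10250). The part of either list in the differences between RE and AM was not tested.

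The ligand Sema5a was at 133.6 to 1208 CPM in RE (median 362.4) and 29.3, 36.1, 49.2 and 26.5 in AM, without overlap (3.66 ± 0.38; edgeR, adjusted p = 2.00e-12). Sema6a was at 178.2 to 417.6 CPM in RE (median 255.6) and 85.1, 86.5, 81.6 and 46.8 in AM (1.84 ± 0.38, adjusted p = 6.16e-04). Sema3e was nearly absent from RE, at 0.592 to 7.59 CPM (median 1.21), and stood at 186.8, 117.3, 180.7 and 140.1 in AM (-5.88 ± 0.94, adjusted p = 3.64e-06). Sema7a, the ligand of Plxnc1, was at 0 to 10.97 CPM in RE (median 4.35) and 38.9, 37.5, 17.8 and 47.6 in AM (-2.67 ± 0.72, adjusted p = 0.0252). All 4 semaphorins were separated between the nuclei in every DiI library. The single AAV library of AM, described below with the tracers, was not part of this pair and lay within the RE range for Sema6a.

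Among the receptors, Epha5 was at 288.1 to 462.7 CPM in RE (median 332.5) and 123.6, 75.7, 161.3 and 123.8 in AM (1.497 ± 0.38, adjusted p = 0.0106). Robo2 was at 123.3 to 182.7 CPM in RE (median 147.9) and 55.1, 44.0, 19.3 and 41.5 in AM (1.89 ± 0.53, adjusted p = 0.0329). Unc5b was at 0 to 8.07 CPM in RE (median 0.127) and 26.4, 28.7, 46.2 and 22.9 in AM (-4.28 ± 1.2, adjusted p = 0.0344). Epha7 had 61.6 ± 46.9 CPM in RE (n = 8) and 284.4 ± 65.4 in AM (n = 4; -2.21 ± 0.33, adjusted p = 9.41e-07), and Epha8 5.48 ± 4.66 against 31.5 ± 14.6 (-2.52 ± 0.73, adjusted p = 0.0431). None of these receptors overlapped between the DiI libraries of the nuclei, and the share of all genes without overlap was not computed.

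RE and AM libraries 1 to 4 came from the same 4 mice. With the replicate number as a block in those 4 pairs 7 members were called, and Sema7a (adjusted p = 0.121) and Epha8 (0.142) were not. On the shared amplification date (4 libraries each) the same 2 genes fell short (0.23 and 0.304), and with the date as a term Robo2 did too (0.0878). Epha8 was also not called with sex as a term (0.117) or with RE and AM fitted alone (0.0807). Leaving out 1 AM library lowered the count to 4 without library 2 and 5 without library 1. Sema7a, Epha8, Unc5b and Robo2 each lost their call in 3 or 4 of these 4 fits (adjusted p = 0.0512 to 0.227), and Epha5 without library 2 (0.101).

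PVT and PF, the paraventricular and parafascicular nuclei, were both labelled from striatum. No member was called by edgeR or by DESeq2, where edgeR called 0.381% of all genes; 6 members had an unadjusted p under 0.05. Epha4 was at 326.2 ± 7.35 CPM in PVT (n = 3) and 523.2 ± 95.5 in PF (n = 4), and Epha3 at 2.83 ± 1.47 against 11.4 ± 5.01, both apart in range, with adjusted p of 0.533 and 0.478. The nuclei share no amplification date, so nucleus and date cannot be told apart here.

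CM labelled from striatum by AAV (n = 4) and by DiI (n = 3) gave the one comparison of tracers within a nucleus and target. No member was called by edgeR or DESeq2, where edgeR called 0.00605% of all genes, and 1 member had an unadjusted p under 0.05. That was Sema6a, at 27.1 ± 14.1 CPM with AAV and 49.2 ± 13.1 with DiI (log2 fold change -0.86 ± 0.43, adjusted p = 0.761). The libraries of the 2 tracers were amplified on different dates, and these groups of 3 and 4 leave wide intervals. In AM the single AAV library had 212.2 CPM of Sema6a and 120.6 of Sema5a, above the DiI libraries (46.8 to 86.5 and 26.5 to 49.2 CPM); with 1 library this has no replicate check.

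Nuclei labelled from striatum and from cortex were compared on counts summed per nucleus, 7 nuclei against 15, so that each nucleus counts once. Of 50 members 16 were called, 9 higher and 7 lower in the striatum-labelled nuclei, where 18.4% of all 15440 genes tested were (8.58% higher, 9.8% lower). For genes of at least 10 CPM the count was 13 of 40 against 25.5%. The striatum-labelled nuclei had less Sema6a, Nrp1 and Nrp2 and more Sema5b, Ephb3, Epha1 and Unc5b. The median log2 fold change, striatum over cortex, was 0.20 over members and -0.081 over all genes. In the libraries summed here every striatum-labelled nucleus carried AAV and every cortex-labelled one DiI, so the parts of target and tracer cannot be told apart. The classes were also unbalanced in sex. Most nuclei of the striatum class held only females and none only males. Most of the cortex class held only males, with AM the one all-female exception. The part of sex in the class differences was not tested.

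Among the ligands Sema6a was at 15.8 to 72.8 CPM in the striatum-labelled nuclei (median 26.5) and 70.3 to 543.1 in the cortex-labelled ones (median 438.7). By means over libraries IAD, with 67.4 ± 5.58 CPM (SD, n = 3), was the 1 cortex-labelled nucleus below a striatum-labelled one, CL with 70.7 ± 10.8 (n = 4), and the log2 fold change was -3.40 ± 0.40 (edgeR, adjusted p = 1.6e-05). CM labelled by DiI, with 49.2 ± 13.1 CPM of Sema6a, lay within the range of the AAV-labelled nuclei. Sema5b was at 43.3 to 125.0 CPM in the striatum-labelled nuclei (median 80.1) and 0 to 21.9 in the others (median 0.565), with no overlap (4.15 ± 0.98, adjusted p = 4.78e-03). Sema7a was at 3.36 to 40.7 CPM against 5.95 to 222.5 (medians 16.4 and 57.2; -2.06 ± 0.57, adjusted p = 0.0139), overlapping. Sema4a was higher (12.5 against 6.05 CPM, adjusted p = 0.0478) and Efna3 lower (15.5 against 26.4, 0.034) by smaller amounts.

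Both neuropilins were lower in the striatum-labelled nuclei. Nrp1 was at 0.0912 to 1.83 CPM (median 0.55) there and at 2.88 to 44.1 (median 8.16) in the cortex-labelled nuclei, without overlap (-4.15 ± 0.75, adjusted p = 6.32e-04). Nrp2 was at 0 to 1.67 CPM (median 0.326) against 0.147 to 244.1 (median 10.4; -6.56 ± 1.40, adjusted p = 2.27e-03), and some cortex-labelled nuclei such as VL had as little as the striatum-labelled ones. Plxna2 (250.9 against 139.1 CPM, adjusted p = 0.0152), Plxna3 (45.5 against 23.3, 0.0456) and Plxnb2 (44.8 against 23.1, 0.0339) were higher in the striatum-labelled class, with overlapping nuclei. Without libraries of recorded age above 400 Plxna3 (0.909 on the log2 scale, adjusted p = 0.0772), Plxnb2 (0.996, 0.0534) and Sema4a (0.961, 0.0746) were not called. With CM taken from its DiI libraries Plxna3 (0.864, 0.0818) and Sema4a (0.979, 0.0677) were not, nor was Sema4a with RLE size factors (1.03, 0.0516).

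Among the Eph and netrin receptors, Ephb3 was at 6.03 to 23.0 CPM in the striatum-labelled nuclei (median 17.9) and 0 to 5.12 in the others (median 0.719), apart in range (3.43 ± 0.72, adjusted p = 2.02e-03). Epha1 was at 8.18 to 56.0 CPM against 0.0509 to 13.0 (medians 19.6 and 1.19; 3.22 ± 0.65, adjusted p = 1.43e-03). Unc5b was at 30.73 to 54.9 CPM against 0.0174 to 30.69 (medians 46.3 and 2.55; 2.57 ± 0.83, adjusted p = 0.0318), the ranges just missing each other on the summed counts. Ephb6, a kinase-inactive receptor, was higher (41.3 against 17.9 CPM, adjusted p = 7.54e-03), and Epha7 (86.1 against 212.8, 8.36e-03) and Unc5c (143.3 against 312.3, 0.0101) were lower.

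Restricted to amplification dates that held both classes, with sums per nucleus and date and the date as a term, 9 members were called. Unlike the main class comparison, this fit did not leave out the DiI libraries of CM or the AAV library of AM. Of the 16 above 13 were not, among them Sema5b (2.10, adjusted p = 0.0973), Ephb3 (2.07, 0.0745), Nrp2 (-4.54, 0.187), Epha7 (-0.73, 0.112) and Unc5b (1.91, 0.0827), and Unc5c changed sign (0.018, adjusted p = 0.984). Sema6a, Nrp1 and Sema7a were called there too. The oligodendrocyte markers were lower in the striatum-labelled class for 6 of 9 genes, where 9.8% of all genes were, with sums of 11.3 to 60.0 CPM in the libraries labelled from striatum against 0.992 to 4229 in those labelled from cortex. Without the 6 libraries above 500 CPM Sema4a (log2 fold change 0.943 against 1.04 with all, adjusted p = 0.0789), Unc5b (2.62 against 2.57, 0.0514) and Plxna3 (0.937 against 0.965, 0.0542) had folds of about the same size and were not called. Other markers moved with the classes as well. The habenula gene Gpr151 was higher in the striatum-labelled class (library median 13.7 against 0.592 CPM) and Pvalb lower, with summed GABAergic markers at 0 to 8.71 CPM against 0 to 353.6. Of the 8 thalamic projection neuron markers 5 were called, Slc17a6 and Calb2 higher and Lef1, Rora and Prkcd lower. The part of these lists in the class differences was not tested. Among the fits that left out 1 library, Sema4a was not called in 23 (adjusted p up to 0.102) and Plxna3 in 9 (up to 0.0797), and Efna3 was not called without PVT library 1 (0.0817) or CM library 3 (0.0564) nor Plxnb2 without AD library 2 (0.0543).

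**Figure D5:**
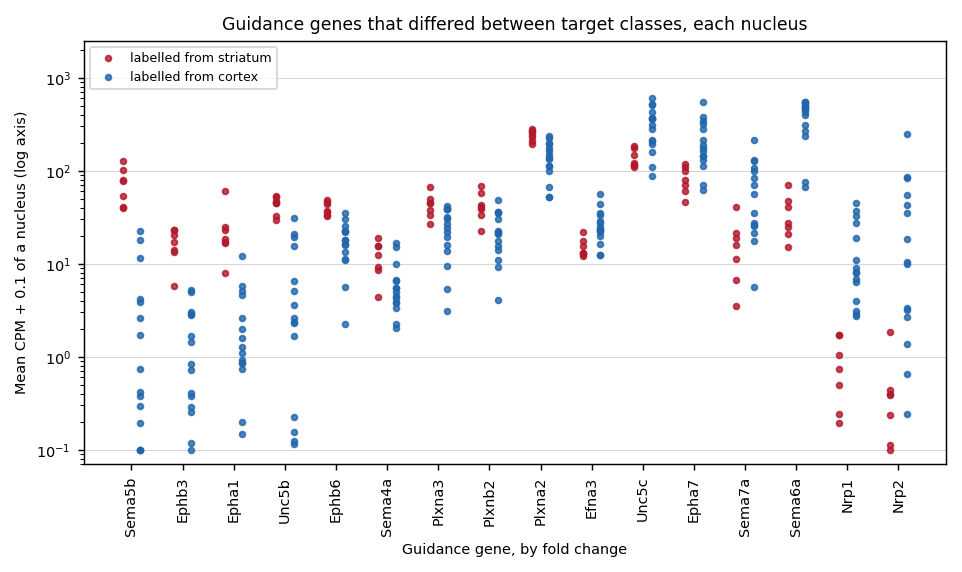
Mean level of each guidance gene called between the target classes, as mean CPM + 0.1 of a nucleus on a log axis; each point is 1 nucleus, red for the 7 labelled from striatum and blue for the 15 labelled from cortex. Sema5b, Ephb3 and Nrp1 have no overlap between the colours; for Unc5b, 1 cortex-labelled nucleus, AM, lies above CL in this plot of means although the summed counts do not overlap.

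Over these 5 pairs, PVT against PF, the CM tracers and the target classes, 37 of 50 members were called in at least 1 of the 8 comparisons, where 25% of all genes were, and 13 in none. Robo2 was called in 5 of the 8, and Sema5a, Sema3e and Plxna4 in 4. The 13 were the ligands Sema4d, Sema4f, Sema6b, Sema6c, Efna2, Efnb1, Efnb3 and Slit3 and the receptors Epha3, Epha10, Dcc, Neo1 and Unc5a, of which Sema4f and Sema6c were not called over the 22 nuclei either.

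Dcc, the attractive netrin receptor, had the largest F of these 13 over the nuclei (6.77, adjusted p = 6.35e-11). It was at 108.2 ± 40.6 CPM in RE (n = 8) and 94.97 ± 53.4 in VPMpc (n = 6), and the 3 nuclei that project to M1 were the lowest, with VA at 2.22 ± 2.57 (n = 8), VM at 1.97 ± 1.62 (n = 6) and VL at 0.711 ± 1.65 (n = 6). Every library of these 3 carried the viral label from SNr and DCN, whose part was not tested. The libraries of no 2 neighbours in the order of Dcc levels were separate. Neo1 (adjusted p = 4.49e-09) ran from 283.3 ± 23.65 CPM in SPA (n = 4) to 79.1 ± 31.8 in AD (n = 4). Among the ligands, Slit3 (adjusted p = 4.27e-03) was highest in LD at 99.9 ± 60.0 CPM (n = 5) and lowest in MD at 15.2 ± 11.5 (n = 6). Efnb3 (adjusted p = 5.85e-07), a membrane-bound ephrin, was at 25.0 ± 10.5 CPM in RE (n = 8) and 18.5 ± 8.29 in SPA (n = 4), against a median of 1.78 over the 22 nuclei.

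Genes linked to these pathways were followed in 4 lists (59 genes, 51 of them tested). The lists hold ligands and surface proteins such as Rgma, Rgmb, Flrt2, Flrt3 and Dscam besides genes that act downstream of the receptors. Over the 22 nuclei 33 of the 51 were called, where 55.1% of all genes and 46 of the 50 members were. Of the 51, 3 were called between LP and LGd (3.62% of all genes), 4 between PO and VB (2.65%), 3 between VM and VL (1.69%), 10 between AD and AV (5.69%; 5 higher and 5 lower in AD), 4 between RE and AM (1.84%) and none between PVT and PF or between the CM tracers. The median log2 fold changes of the 51 lay between -0.076 and 0.142 in the pairs and the class comparison that had calls.

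Dpysl5, a collapsin response mediator of the semaphorin pathway, was called in each of the visual, somatosensory and motor pairs. It was at 150.7 ± 37.0 CPM in LP and 47.7 ± 15.4 in LGd (log2 fold change 1.66, adjusted p = 1.41e-04), at 132.7 ± 37.6 in PO and 34.0 ± 8.15 in VB (1.97, 9.82e-05), and at 150.1 ± 28.2 in VM and 55.1 ± 22.9 in VL (1.45, 1.98e-03). Dpysl5 was also higher in AD than AV (1.22, adjusted p = 0.00619) and in the striatum-labelled nuclei than in the cortex-labelled ones (1.13, 0.00223). Srgap3, a Robo-associated GTPase-activating protein, was higher in LP than LGd (1.34, adjusted p = 1.42e-03) and lower in PO than VB (-1.48, 6.91e-04), and it was the 1 gene of the 51 called for the difference between those 2 pairs. Between AD and AV the netrin-pathway genes Trim9 (-1.73, adjusted p = 7.33e-09) and Dscam (-2.14, 3.29e-07) were lower in AD. Of the netrin list 3 genes were lower there and 1, Rgmb, was higher (2.80, adjusted p = 0.0242). Tiam1, an Eph-linked exchange factor, was lower in AD (-1.76, 3.26e-06) and in RE against AM (-2.09, 1.06e-09). Between the target classes 17 of the 51 were called, 5 higher and 12 lower in the striatum-labelled nuclei, where 18.4% of all genes were (8.58% higher, 9.8% lower), such as Chn2 (1.72, adjusted p = 3.03e-03) and Enah (-0.80, 5.99e-04).

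Known ligand and receptor partners were set side by side over the 22 nuclei on log2(mean CPM + 1), as a description, since nuclei share target, tracer, dates and mice. Sema6a and Plxna2 ran in opposite directions (Pearson r = -0.683, Spearman rho = -0.797; r = -0.645 without the 2 nuclei farthest in Sema6a, IMD and SPA). Sema7a and its receptor Plxnc1 had r = -0.427 and rho = -0.409 (-0.366 without PVT and VL), and Sema3e and Plxnd1 r = 0.356 and rho = 0.405 (0.372 without RE and VL). Sema6d and Plxna1 had r = -0.212 and rho = -0.281 (-0.226 without MD and PO), and Sema6a and Plxna4 r = 0.019 and rho = 0.015 (0.094 without IMD and SPA).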

How the data were processed

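Bulk RNA-seq counts of 120 libraries of retrogradely labelled thalamic neurons were analysed. Per the labels' protocols, fluorescent cells were sorted by hand, RNA was extracted with the PicoPure kit and amplified with the Ovation kit. Per the submitters' processing notes, cutadapt 1.16, STAR 2.5.3a and featureCounts 1.52 were used with build mm10; how reads were counted is not given in the sources used here. Unnormalized whole-number counts were deposited by the authors, with a second table giving the nucleus, tracer, target, mouse, sex, age, cells and amplification date. There were no molecular identifiers, and floors and ratio intervals therefore take in counting error alone.

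The members and gene lists were chosen with earlier results of these data known. Counts were fitted in 1 model with edgeR 4.0.16 (R 4.3.3): 24 groups, TMM factors, filterByExpr (minimum count 10, minimum total 15; 16527 genes left), the quasi-likelihood F test, and Benjamini-Hochberg adjustment over all genes. Tests are two-sided. For the class comparison counts were summed per nucleus. CM was taken from AAV and AM from DiI libraries where 22 nuclei were compared. Per-library values are given for Plxnc1, Sema6d, Sema5a, and, in each comparison, up to 3 called members per direction with the largest fold change and at least 10 CPM in the higher group; other values were chosen after they were seen. A fold against a group at 0 was computed against 3 counts over that group. The fit was run on simulated counts, with a spread that depended on level alone and with changes put into better expressed genes alone. That run does not cover members at low counts, and its outcome is not given here. Alternatives included DESeq2 1.42.0, limma 3.58.1 (voom), other scaling, no filter, leaving out libraries, dates and sex as terms, and the replicate block. Sex was not run as a term for the class comparison. Alternatives chosen after seeing the data were legacy = FALSE in edgeR, shared dates only, the block in the 4 shared mice of RE and AM, and leaving out libraries above 500 CPM of oligodendrocyte markers, of recorded age above 400 (its unit is not given in the sources used here) or of another genotype. Same-numbered libraries of RE and AM come from the same 4 mice, 3 of 6 numbers of VM and VL and 2 of 4 of AD and AV share a mouse, and the other pairs none; deviations of same-numbered libraries correlated at -0.073 to 0.069. Gene positions of all 50 members matched the mm10 annotation. Within groups no library pair had identical counts.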

Additional observations from a re-analysis of the deposited data

Results flagged for a closer look

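Single libraries stood apart from the rest of their group in 33 of 240 checks (12 members, 20 groups of 4 to 10 libraries) by Dixon's test at the 95% level; chance alone gives about 1 in 20. Each level is in CPM and is followed by that of the nearest library of its group.

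Nrp2 had 8 such libraries, all high and most at very low levels: AD library 1 at 186.9 (next 56.5), CM AAV 3 at 1.163 (0), LGd 1 at 12.7 (0.162), MD 1 at 18.5 (0.235), PO 7 at 5.64 (1.57), SPA 3 at 6.40 (0.659), VB 1 at 1.42 (0.346) and VPMpc 6 at 89.2 (14.6). Sema5b had 7: AV 2 at 1.18 (0.172), LGd 3 at 1.38 (0), MD 6 at 0.57 (0), RE 2 at 4.36 (0.347), VA 3 at 82.4 (2.35), VB 1 at 1.26 (0) and VPMpc 1 at 13.7 (1.30). VA 3 is also the library with the highest summed oligodendrocyte markers, at 4229 CPM; their part in its Sema5b level was not tested.

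Among the better expressed members, Sema6a was low in AM 4 at 46.8 (81.6) and high in AV 4 at 461.0 (258.2) and PCN 4 at 82.9 (29.4). Epha5 was high in MD 3 at 639.4 (189.0), RE 3 at 462.7 (370.5) and VPMpc 3 at 357.3 (245.5). Unc5c was high in RE 3 at 415.4 (331.8) and low in VPMpc 3 at 281.9 (425.3). Sema5a was high in RE 3 at 1208 (457.8) and VB 2 at 1469 (826.7), and Epha4 in MD 5 at 1110.0 (621.5) and PO 7 at 702.9 (626.5). Plxnc1 was high in LGd 1 at 136.1 (58.2) and MD 6 at 913.0 (263.6). Plxna2 was high in AM 3 at 359.7 (140.7), LGd 1 at 141.0 (53.5) and PCN 3 at 498.5 (231.7), and Plxna4 in LP 2 at 237.3 (170.6). RE library 3 was the high one for Epha5, Unc5c and Sema5a alike.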

How the results depend on the processing

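Of 1849 values of single genes under an alternative, 1688 had the direction and the side of the threshold reported, 160 had the direction but not the call, and 1 reversed: Unc5c between the target classes on the dates that hold both (0.018). Each member called between the classes gave 60 of these values, 52 of them from leaving out 1 library. The total is therefore weighted towards fits that differ little from the main one. The count of members called moved by over 1.5 times as follows. DESeq2 called 18 for PO against VB, 12 for VM against VL and 3 for the difference between the visual and somatosensory pairs. The quasi-likelihood test of edgeR with legacy = FALSE called 14 for VM against VL, 1 for PVT against PF and 1 for that difference, and limma voom with the mouse as a random effect 12 for VM against VL. Fitting the compared groups alone gave 6 for PO against VB, 14 for RE against AM, 1 for PVT against PF and 1 for the difference of pairs. Shared dates only gave 3 for PO against VB and 11 for AD against AV, the libraries below 500 CPM of oligodendrocyte markers 5 for PO against VB, and the dates with both target classes 9. The cause was not tested. Leaving out 1 library gave 46 in each of 52 fits for equal means, 7 to 11 for LP against LGd and 7 to 11 for PO against VB. It gave 12 to 18 for AD against AV, 4 to 8 for RE against AM, and 0 for PVT against PF and for the CM tracers. The difference of pairs had 0 to 1 and the classes 14 to 18. VM and VL have 6 libraries each and, like LP, PO, AV, RE and the other groups of 6 or more, were not treated so. In the pairs with LP, PO, AV or RE, therefore, only libraries of LGd, VB, AD or AM were left out. The pair fits kept the spread estimated from all libraries. With the replicate block the counts were 45 for equal means, 10 for LP against LGd, 10 for PO against VB, 8 for VM against VL, 16 for AD against AV, 8 for RE against AM (7 in the same 4 mice), and 0 for PVT against PF, the CM tracers and the difference of pairs; no paired analysis was possible for the classes because nuclei carry no shared number. A date term was not run for equal means, PVT against PF and CM, whose groups do not share dates. With RLE size factors 49 of 50 members had the same highest nucleus, and with medians 34. Groups of 3 to 9 libraries and members at a few counts limit what could be detected.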
